A study of Mus musculus with 9 samples.

Results

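The 10 genes described here are targets or regulators of Wnt signalling in pericentral hepatocytes, the liver cells around the central vein: Lgr5, Lgr4, Notum, Axin2, Rnf43, Znrf3, Tbx3, Glul, Rhbg and Slc1a2. They were chosen by name, with earlier results of these data known, and are 10 of the 16012 genes with a read on an annotated splice junction. Shares over all genes printed beside their counts are therefore description and not a test of the set. RNA came from the livers of C57BL/6 mice in 3 groups with 3 libraries each: wild-type mice (WT), mice with an inducible YAP transgene (YAP), and mice with the transgene whose Lsd1 gene was also knocked out (YAP_Lsd1ko). YAP co-activates transcription and is held back by the Hippo pathway, and LSD1, encoded by Kdm1a, is a histone demethylase. All mice, WT included, had received the vector AAV8-ApoE/ATT1-Cre by intraperitoneal injection. YAP was induced with 30 mg/L doxycycline in the drinking water for 14 days. The labels give this treatment text with every sample, WT included, but do not state separately whether WT mice drank doxycycline, how old the mice were or which part of Lsd1 was deleted, and no group with the Lsd1 knockout alone was analysed here. Nor is it stated that libraries of a group were made from separate animals, and p-values here therefore reflect nothing beyond the spread among these libraries, which may be technical.

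Endothelial cells of the central vein secrete Wnt ligands and R-spondin, and the neighbouring hepatocytes answer through β-catenin and TCF/LEF factors. LGR4 and LGR5 bind R-spondin, which removes the ubiquitin ligases RNF43 and ZNRF3 from the cell surface and so keeps Wnt receptors there. Notum and Axin2 are targets of the pathway that damp it, and Glul, Rhbg and Slc1a2 equip pericentral hepatocytes to take up glutamate, make glutamine and carry ammonium.

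Expression was read from uniquely mapped reads that crossed a gene's annotated splice junctions. Libraries held 6910297 to 9925154 uniquely mapped junction reads in all, of which 6516711 to 9267028 lay on annotated junctions of 1 gene. A gene's level is given in CPM, its junction reads scaled to a common library total with TMM, and a gene is said to have risen or fallen where its adjusted p in edgeR's quasi-likelihood test over 10897 genes was under 0.05. Log2 fold changes are edgeR's. Of the 10 genes, 9 had enough reads for the test on junctions of 1 gene alone. Rhbg did not, because 8 of its 9 introns are also introns of an overlapping gene model, Gm38392. Its values below are over all 9 junctions, a choice made after the counts were seen, and reads of the 2 models cannot be told apart there.

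The reads that stand for the 5 genes with the lowest level in YAP relative to WT cross exon borders such as the following, each the most read junction of its gene that lies between coding bases. Each sequence has the last 25 bases of 1 exon and the first 25 of the next, and the capitals mark the 4 bases on either side of the border. They are from the GENCODE M21 transcripts (GRCm38), and the intron removed at the border is given after the list.
Lgr5: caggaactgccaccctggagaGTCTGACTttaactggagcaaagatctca
Notum: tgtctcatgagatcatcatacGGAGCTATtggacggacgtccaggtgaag
Glul: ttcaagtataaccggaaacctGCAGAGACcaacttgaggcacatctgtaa
Rhbg: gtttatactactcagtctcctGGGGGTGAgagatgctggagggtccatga
Slc1a2: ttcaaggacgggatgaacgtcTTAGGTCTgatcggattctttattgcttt

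These borders close the introns at chr10:115466202-115466341 (Lgr5, minus strand), chr11:120654527-120654763 (Notum, minus strand), chr1:153904699-153906348 (Glul, plus strand), chr3:88247580-88247686 (Rhbg, minus strand) and chr2:102743974-102748468 (Slc1a2, plus strand). Over the 9 libraries they were crossed by 18, 117, 3805, 194 and 624 reads.

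In WT livers the 10 genes spanned a wide range of levels. Compared per junction of the transcript that holds nearly all of a gene's reads, Glul stood highest at 95.2 ± 12.8 CPM per junction (SD, n = 3), then Slc1a2 at 14.3 ± 1.78 and Lgr4 at 7.49 ± 0.815. Rhbg at 6.48 ± 3.32 overlapped Lgr4 in its libraries, and Notum stood at 2.82 ± 0.268. The other genes lay at or under 0.862 CPM per junction, in the order Rnf43, Tbx3, Znrf3, Lgr5 and Axin2, and each of these neighbours overlapped the next. The lowest, Axin2, was at 0.244 ± 0.0410 CPM per junction, from 49 reads in the WT libraries together.

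Before the groups are compared, the targeted genes and libraries need stating. The WT libraries held 19.8, 19.3 and 17.4 CPM of Yap1, the YAP libraries 78.6, 66.8 and 78.8 CPM, and the YAP_Lsd1ko libraries 47.7, 35.2 and 30.4 CPM. It was thus lower in YAP_Lsd1ko than in YAP (log2 fold change -0.98, SE 0.17, edgeR adjusted p = 0.0213), so the comparison of these groups differs in Yap1 as well as in Lsd1. Kdm1a stood at 15.8, 35.4 and 25.3 CPM in YAP_Lsd1ko replicates 1 to 3, against 30.1 to 38.3 CPM in WT and 36.7 to 46.2 CPM in YAP. Kdm1a RNA in the library labelled YAP_Lsd1ko replicate 2 was thus at the WT level. This sum over all Kdm1a junctions in bulk liver cannot tell whether the knockout failed there, as the deleted part is not stated. Most tests of the 10 genes that involve YAP_Lsd1ko, and the calls of other genes in that group, are therefore also given without this library. Without it the difference in Yap1 from YAP was -0.95 (edgeR adjusted p = 0.0495). Kdm1a then differed by -1.03 from YAP (edgeR adjusted p = 0.0573) and by -0.69 from WT (edgeR adjusted p = 0.0961), and neither difference passed. Markers of hepatocytes were present in every library, with a summed level of 113245 to 211800 CPM for 10 genes. Most of this sum was Alb alone, at 83664 CPM in the lowest library (YAP_Lsd1ko replicate 2) and 186692 CPM in the highest (YAP replicate 1). In bulk liver RNA, fewer cells of a type and less RNA per cell cannot be told apart. Multi-mapped reads, which were not counted, made up 32.2 to 68.6% of junction reads in WT, 13.1 to 14.4% in YAP and 24.5 to 59.5% in YAP_Lsd1ko.

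YAP livers had less RNA of most of the pericentral genes than WT livers. Of the 9 genes tested 6 fell and 0 rose in YAP against WT, where 10.0% of all genes tested fell and 7.44% rose, and Rhbg over its 9 junctions fell as well (9.97% of 11249 genes fell in the fit that includes shared junctions). Relative to WT, 0.812% of the Slc1a2 level was left in YAP, 2.10% of Rhbg, 4.64% of Lgr5, 5.17% of Notum, 9.46% of Glul, 19.3% of Tbx3 and 43.3% of Lgr4. All 3 YAP libraries lay below all 3 WT libraries for 8 of the 10 genes, as was so for 22.8% of the genes tested. Rnf43 and Znrf3 were the exceptions. The median log2 fold change of the 9 genes was -2.35, beside 0.00 for all genes tested.

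**Figure D1:**
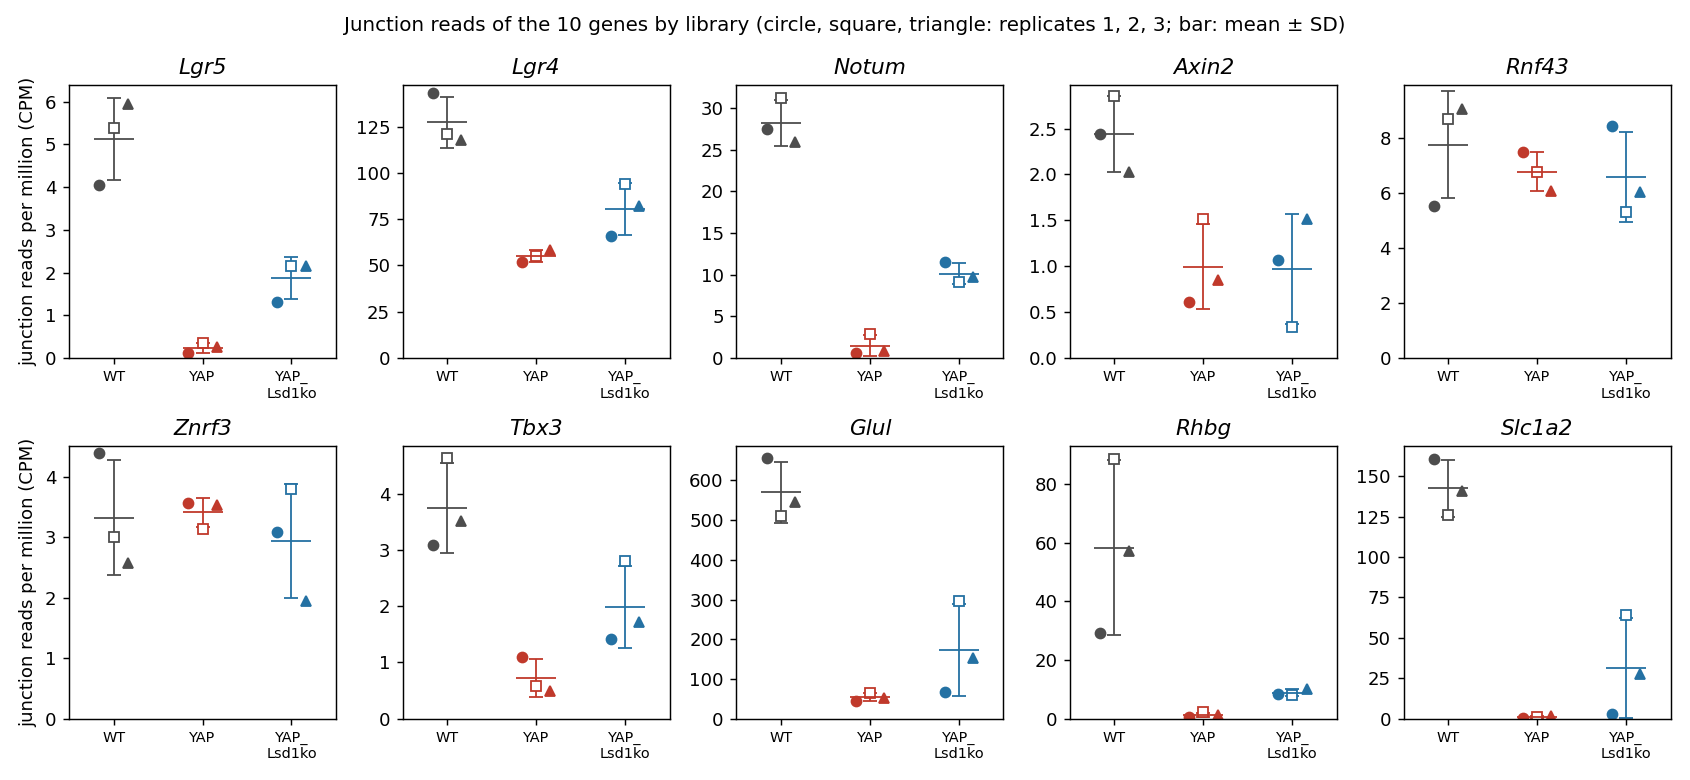
Junction reads in CPM (vertical axis, linear, from 0) of the 10 genes in each library of WT, YAP and YAP_Lsd1ko, with circles, squares and triangles for replicates 1, 2 and 3 and a bar for the mean ± SD of 3 libraries. The YAP libraries lie below the WT libraries in 8 panels and among them for Rnf43 and Znrf3, and the YAP_Lsd1ko libraries spread widely for Glul (67.2 to 296 CPM) and Slc1a2 (2.73 to 64.3 CPM) but not for Notum (9.10 to 11.5 CPM).

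Among the receptors for R-spondin, Lgr5 (chr10:115450311-115587780, minus strand) marks the hepatocytes nearest the central vein. It had 4.06, 5.39 and 5.94 CPM in WT replicates 1 to 3, 0.123, 0.349 and 0.243 CPM in the same order in YAP and 1.30, 2.15 and 2.15 CPM in YAP_Lsd1ko. The 3 groups did not overlap, and the YAP values rest on 6 reads in all. Lgr5 fell in YAP (log2 fold change -4.33, SE 0.42, edgeR adjusted p = 5.05e-04). From YAP to YAP_Lsd1ko it rose (2.87, SE 0.45, edgeR adjusted p = 0.0170). Its level in YAP_Lsd1ko was 36.4% of WT, a difference that did not pass (-1.46, SE 0.32, edgeR adjusted p = 0.0590).

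Lgr4 (chr2:109917647-110014257, plus strand), its more widely expressed relative, had 143, 121 and 118 CPM in WT replicates 1 to 3, 51.8, 55.2 and 58.5 CPM in the same order in YAP and 65.7, 93.8 and 82.2 CPM in YAP_Lsd1ko. These groups too did not overlap, although the steps were smaller than for Lgr5. The gene fell in YAP (log2 fold change -1.21, SE 0.15, edgeR adjusted p = 0.00130). The higher level in YAP_Lsd1ko than in YAP (0.54, SE 0.15, edgeR adjusted p = 0.102) and the lower one than in WT (-0.66, SE 0.15, edgeR adjusted p = 0.0566) did not pass. The former was 0.41 without the library labelled YAP_Lsd1ko replicate 2 (adjusted p = 0.253). Between YAP and WT the 95% intervals of the 2 receptors were -5.28 to -3.38 for Lgr5 and -1.54 to -0.87 for Lgr4, and the difference between the genes was not tested.

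The ubiquitin ligases that R-spondin and its receptors remove did not pass in any comparison. Rnf43 (chr11:87662722-87735539, plus strand) had 5.53, 8.69 and 9.05 CPM in WT replicates 1 to 3, 7.49, 6.75 and 6.08 CPM in the same order in YAP and 8.42, 5.29 and 6.03 CPM in YAP_Lsd1ko. Znrf3 (chr11:5276324-5444847, minus strand) had 4.39, 3.0 and 2.57 CPM in the WT libraries, 3.56, 3.14 and 3.53 CPM in the YAP libraries, and 3.08, 3.80 and 1.94 CPM in the YAP_Lsd1ko libraries. The groups overlapped for both genes in every comparison. Between YAP and WT the 95% interval of the log2 fold change was -0.77 to 0.37 for Rnf43 (edgeR adjusted p = 0.611) and -0.66 to 0.76 for Znrf3 (edgeR adjusted p = 0.935), which leaves out a fall as large as that of Lgr4. For both, the sign of the difference varied with the scaling or the library left out.

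Of the inhibitors that the pathway induces, Notum (chr11:120653788-120661175, minus strand) encodes a secreted enzyme that strips the lipid from Wnt proteins. It had 27.5, 31.2 and 25.9 CPM in WT replicates 1 to 3, 0.614, 2.91 and 0.851 CPM in the same order in YAP and 11.5, 9.10 and 9.70 CPM in YAP_Lsd1ko. YAP replicate 2 was the highest of its group, and no groups overlapped. Notum fell in YAP (log2 fold change -4.24, SE 0.43, edgeR adjusted p = 6.19e-04) and rose from YAP to YAP_Lsd1ko (2.77, SE 0.43, edgeR adjusted p = 0.0169), where it stood at 35.8% of WT (-1.48, SE 0.35, edgeR adjusted p = 0.0766). Without the library labelled YAP_Lsd1ko replicate 2 the difference from WT was -1.41 (adjusted p = 0.0658).

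Axin2 (chr11:108920349-108950783, plus strand), a scaffold of the β-catenin destruction complex and a widely used readout of Wnt signalling, had few reads. WT libraries had 2.44, 2.85 and 2.03 CPM, YAP libraries 0.614, 1.51 and 0.851 CPM, and YAP_Lsd1ko libraries 1.07, 0.331 and 1.51 CPM, from 49, 25 and 25 reads per group. Both groups with the transgene lay below WT in every library and overlapped each other. The difference between YAP and WT did not pass (log2 fold change -1.27, SE 0.50, edgeR adjusted p = 0.105). Between YAP_Lsd1ko and YAP it was 0.02 with a 95% interval of -1.15 to 1.20 (edgeR adjusted p = 0.987), and its sign changed with library size alone as the scaling and with single libraries left out. At this depth a rise of the size seen for Lgr5 or Notum lies outside that interval, and a doubling, 1 on the log2 scale, lies inside it.

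Tbx3 (chr5:119670669-119684724, plus strand) encodes a transcription factor that β-catenin induces in liver. It had 3.09, 4.64 and 3.51 CPM in WT replicates 1 to 3, 1.10, 0.582 and 0.486 CPM in the same order in YAP and 1.42, 2.81 and 1.72 CPM in YAP_Lsd1ko, so the 3 groups did not overlap. Tbx3 fell in YAP (log2 fold change -2.35, SE 0.42, edgeR adjusted p = 0.00636). The differences of YAP_Lsd1ko from YAP (1.41, SE 0.43, edgeR adjusted p = 0.139) and from WT (-0.94, SE 0.38, edgeR adjusted p = 0.272) did not pass. Without the library labelled YAP_Lsd1ko replicate 2 they were 1.10 (adjusted p = 0.327) and -1.24 (adjusted p = 0.0997).

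The genes of glutamine synthesis, glutamate uptake and ammonium transport all fell in YAP. Glul (chr1:153899944-153909723, plus strand), which encodes glutamine synthetase, had 657, 510 and 545 CPM in WT replicates 1 to 3, 44.7, 65.0 and 52.4 CPM in the same order in YAP and 67.2, 296 and 153 CPM in YAP_Lsd1ko. YAP_Lsd1ko replicate 1 was near the highest YAP library and replicate 2 was 4.40 times as high as replicate 1. Glul fell in YAP (log2 fold change -3.40, SE 0.47, edgeR adjusted p = 0.00277). From YAP to YAP_Lsd1ko the difference was 1.67 (SE 0.45, edgeR adjusted p = 0.103) and did not pass, being 1.02 without the library labelled YAP_Lsd1ko replicate 2 (adjusted p = 0.201) and 2.05 without replicate 1 (adjusted p = 0.00846).

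Slc1a2 (chr2:102658659-102790784, plus strand) encodes a glutamate transporter of the plasma membrane. WT libraries had 161, 126 and 141 CPM, YAP libraries 0.614, 1.28 and 1.58 CPM, and YAP_Lsd1ko replicates 1 to 3 had 2.73, 64.3 and 27.8 CPM. The lowest YAP_Lsd1ko library was close to YAP and the highest was 23.6 times as high, the widest spread of the 10 genes in any group. Slc1a2 fell in YAP (log2 fold change -6.92, SE 1.03, edgeR adjusted p = 0.00355). The difference of YAP_Lsd1ko from YAP was 4.73 (SE 1.01) and missed the threshold (edgeR adjusted p = 0.0527). It was 3.70 without the library labelled YAP_Lsd1ko replicate 2 (adjusted p = 0.107) and 5.28 without replicate 1 (adjusted p = 0.00451).

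Rhbg (chr3:88242874-88254709, minus strand) encodes an ammonium transporter of the Rhesus family. Over its 9 junctions it had 29.1, 88.8 and 57.1 CPM in WT replicates 1 to 3, 0.491, 2.09 and 1.09 CPM in the same order in YAP and 8.54, 8.10 and 10.1 CPM in YAP_Lsd1ko. WT libraries varied 3.05-fold and YAP_Lsd1ko libraries 1.25-fold, and no groups overlapped. Rhbg fell in YAP (log2 fold change -5.54, SE 0.53, edgeR adjusted p = 5.35e-04), rose from YAP to YAP_Lsd1ko (2.84, SE 0.53, edgeR adjusted p = 0.0372) and stayed below WT there (-2.70, SE 0.43, edgeR adjusted p = 0.0190). The call against YAP was lost without the library labelled YAP_Lsd1ko replicate 2 (2.90, adjusted p = 0.0673), WT replicate 3 (0.0816), YAP replicate 1 (0.128), YAP replicate 3 (0.185) or YAP_Lsd1ko replicate 3 (0.129), and also with library size alone as the scaling (2.75, adjusted p = 0.0647) and with the replicate number as a block (2.99, adjusted p = 0.0534). The call against WT was lost without YAP_Lsd1ko replicate 1 (-2.67, adjusted p = 0.0687), YAP_Lsd1ko replicate 3 (0.0947) or WT replicate 3 (0.0911), and was kept without the library labelled YAP_Lsd1ko replicate 2 (-2.64, adjusted p = 0.0214). On the 1 junction that no other gene model shares, the level in YAP was 2.27% of WT and that in YAP_Lsd1ko 26.2%, beside 2.10% and 15.3% over the 9 junctions. With no filter on low counts, where this junction could be tested alone, Rhbg fell in YAP (-5.16, edgeR adjusted p = 0.00183), and the differences of YAP_Lsd1ko from YAP (3.23, adjusted p = 0.115) and from WT (-1.93, adjusted p = 0.145) did not pass.

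**Figure D2:**
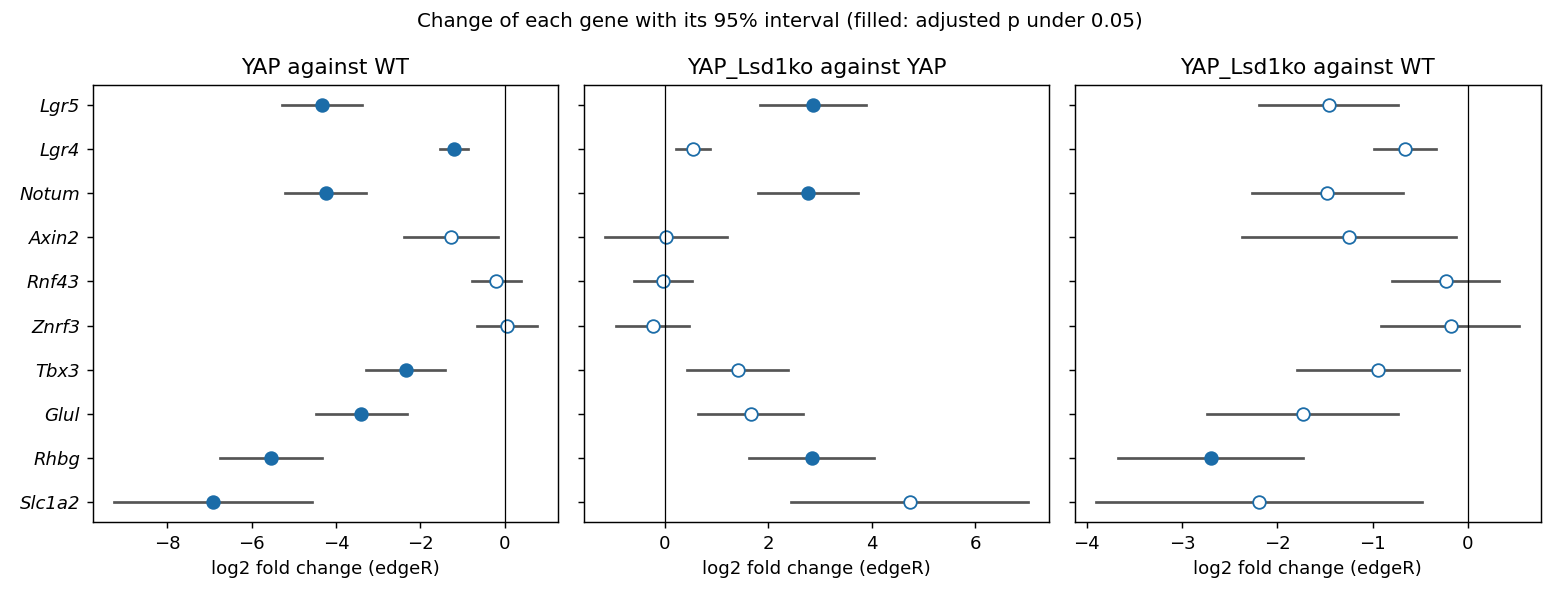
Log2 fold change (horizontal axis, edgeR) of each of the 10 genes in the 3 comparisons, as points with 95% intervals from 9 libraries, filled where the adjusted p was under 0.05; the scales of the panels differ, and Rhbg is over 9 junctions. In YAP against WT 7 points are filled, all below 0, in YAP_Lsd1ko against YAP 3 are filled (Lgr5, Notum and Rhbg), and in YAP_Lsd1ko against WT Rhbg alone.

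Comparison of YAP_Lsd1ko with YAP asks what differed when Lsd1 was knocked out in livers with the transgene. Lgr5 and Notum, 2 of the 9 genes tested, rose and 0 fell, where 1.75% of all genes tested rose and 0.367% fell, and Rhbg over 9 junctions rose as well (1.80% in the fit that includes shared junctions). All 3 YAP_Lsd1ko libraries lay above all 3 YAP libraries for 7 of the 10 genes (12.5% of the genes tested), the exceptions being Axin2, Rnf43 and Znrf3. Lgr5 and Notum also passed without the library labelled YAP_Lsd1ko replicate 2, at 2.77 (edgeR adjusted p = 0.0371) and 2.82 (edgeR adjusted p = 0.0225), where 1.23% of 11127 genes rose. The differences of Axin2, Rnf43 and Znrf3 were then 0.36 (adjusted p = 0.799), 0.08 (0.922) and -0.45 (0.611). Neither passed without WT replicate 3 (adjusted p = 0.0528 for both), YAP replicate 1 (0.0831 for Lgr5 and 0.0600 for Notum), YAP replicate 3 (0.104 and 0.102) or YAP_Lsd1ko replicate 3 (0.0856 and 0.0813). Without YAP_Lsd1ko replicate 1, 5 of the genes tested on junctions of 1 gene rose (Lgr5, Lgr4, Notum, Glul and Slc1a2), beside 653 of all 11038 genes (5.92%).

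Against WT, 0 of the 9 genes passed in YAP_Lsd1ko with edgeR, 7 of them with an unadjusted p under 0.05, as had 15.2% of all genes (1659 of 10897). With DESeq2 4 fell (Lgr5, Lgr4, Notum and Glul), beside 2.65% of all genes (289). The share of all genes that fell was 0.927% with edgeR and the share that rose 1.12%, and 0.933% in the fit with shared junctions, in which Rhbg fell. For 8 of the 10 genes all YAP_Lsd1ko libraries lay below all WT libraries, beside 9.91% of the genes tested. Without the library labelled YAP_Lsd1ko replicate 2, 2.05% of all genes fell (228 of 11127). On junctions of 1 gene, 4 of the 10 did: Lgr5 (log2 fold change -1.56, edgeR adjusted p = 0.0434), Lgr4 (-0.79, adjusted p = 0.0177), Glul (-2.38, adjusted p = 0.00759) and Slc1a2 (-3.22, adjusted p = 0.0468). Rhbg did not pass there on its own junction (-2.01, adjusted p = 0.0979), but fell over its 9 junctions, as given above. The 3 comparisons share libraries, so their values are not independent of each other.

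The YAP_Lsd1ko libraries differed from gene to gene in how far apart they lay. Lgr4, Tbx3, Glul, Slc1a2 and Kdm1a had the order replicate 2, replicate 3, replicate 1 from high to low. The summed level of 22 other pericentral genes had the same order, at 16376, 10599 and 4895 CPM, beside 13859 to 26460 CPM in WT and 2160 to 3783 CPM in YAP. Cyp2e1 made up 5856, 3072 and 802 CPM of that sum. Not every gene of the list had this order, and Ahr, Slc13a3, Gstm2 and Gstm3 had the reverse. Macrophage and Kupffer cell markers, summed over 10 genes, had the reverse order at 518, 1625 and 2418 CPM, against 526 to 1115 CPM in WT and 2347 to 2741 CPM in YAP. Bile duct cell markers, summed over 9 genes, had that reverse order too, at 237, 578 and 756 CPM (127 to 176 CPM in WT and 1131 to 1390 CPM in YAP). Most of these sums was Spp1 alone, at 151, 458 and 608 CPM in YAP_Lsd1ko replicates 2, 3 and 1 and 950 to 1146 CPM in YAP. Krt7 of the same list was highest in replicate 2. In Notum, Rhbg and Lgr5 the highest library was 1.26, 1.25 and 1.65 times the lowest. These markers' part in the differences between the groups was not tested.

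**Figure D3:**
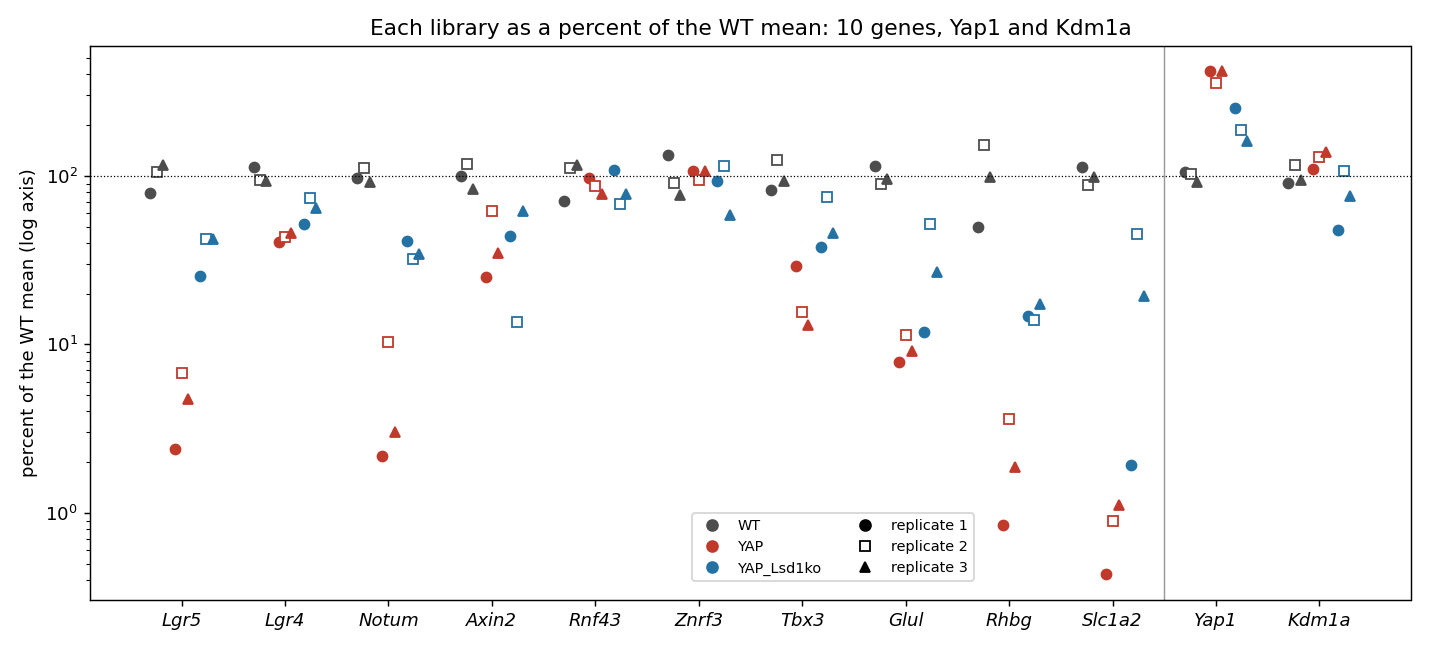
Each library's level as a percent of the WT mean (vertical axis, log scale) for the 10 genes and, right of the vertical line, Yap1 and Kdm1a, with colours for the groups and symbols for replicates. YAP libraries lie lowest for Slc1a2 (mean 0.812% of WT), and the YAP_Lsd1ko libraries fan out for Slc1a2 and Glul in the order of Kdm1a, while those of Notum and Rhbg lie close together.

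Single junctions of a gene were compared as well. Of the junctions with 20 reads or more, all 17 of Lgr4, 10 of Notum, 6 of Glul, 9 of Rhbg and 10 of Slc1a2 were lower in YAP than in WT by summed CPM and higher in YAP_Lsd1ko than in YAP. The 4 such junctions of Tbx3 were all lower in YAP than in WT, while 3 were higher and 1 was lower in YAP_Lsd1ko than in YAP. Junctions of Rnf43 and Znrf3 differed in both directions in each comparison. The 6 junctions of Glul differed between YAP and WT by -3.56 to -3.25 on the log2 scale. A test of junction usage within genes (diffSpliceDGE of edgeR) covered Lgr4, Notum, Glul and Slc1a2 and passed for 0 of the 4 in each comparison, where 0.116%, 0.0385% and 0.0513% of 7791 genes passed in YAP against WT, YAP_Lsd1ko against YAP and YAP_Lsd1ko against WT. None of the 4 had an unadjusted Simes p under 0.05, the smallest being 0.116 for Notum in YAP_Lsd1ko against YAP.

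**Figure D4:**
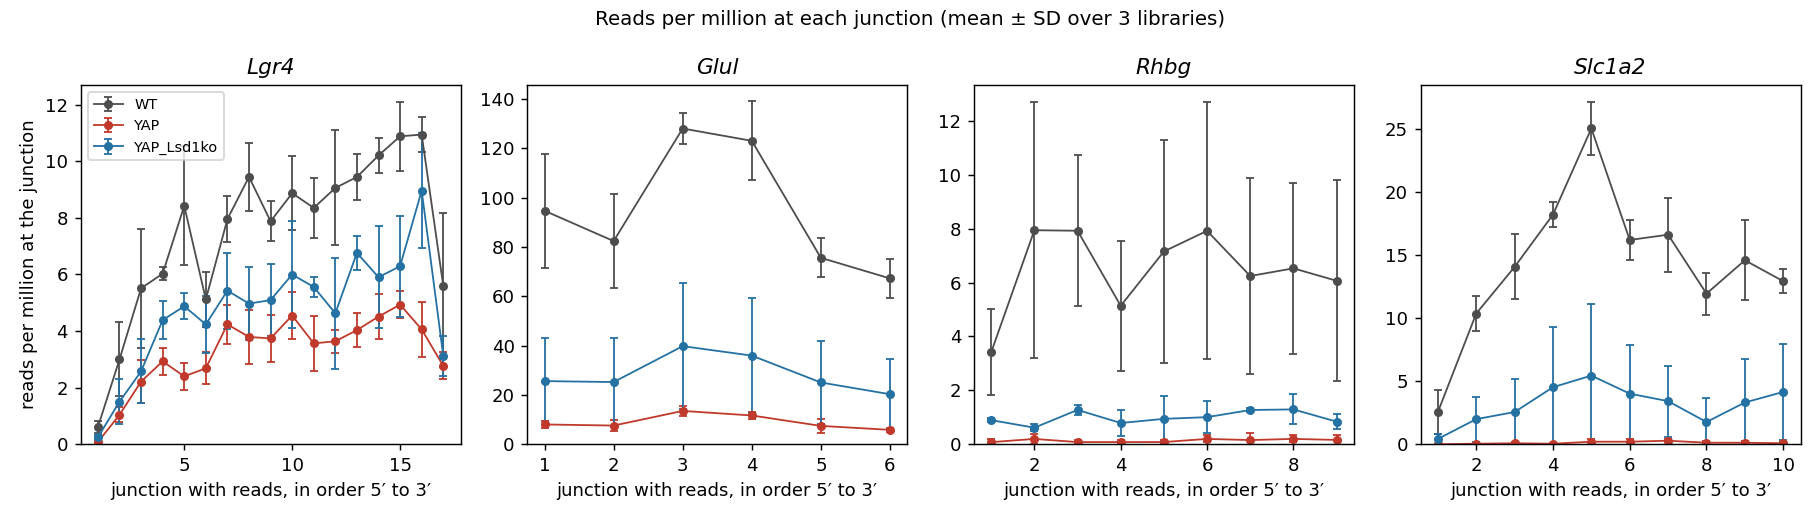
Reads in CPM (vertical axis, linear, from 0) at each junction with reads of Lgr4, Glul, Rhbg and Slc1a2, numbered from the 5′ to the 3′ end (horizontal axis), as mean ± SD of 3 libraries per group. The WT line is highest and the YAP line lowest at all 17, 6, 9 and 10 junctions.

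Slc1a2 has several annotated first exons, and the reads on their annotated introns were compared. The annotation holds 8 introns that join a first or early exon to the same second site at 102735943. All 59 reads on these 8 introns came from the intron starting at 102706484. The other 7 had 0 reads, which allows each a share of up to 5.08% of such reads (3 of 59, counting error only). Reads into this site from unannotated junctions were not counted, and the gene held 13 unannotated junctions with 34 reads in all. The next junction, 102736084-102737776, had 253 reads, so the 59 reads need not stand for every transcript. The intron with reads had 28, 9 and 13 reads in the WT libraries, 0 reads in each YAP library, and 0, 5 and 4 reads in YAP_Lsd1ko replicates 1 to 3. Over all its junctions Slc1a2 had 29 reads in YAP and 2876 in WT, so the 0 reads here do not show a change of start. The 250 bases before the RefSeq start next to the exon with reads (GRCm38.p6, plus strand, chr2:102706188-102706437) are shown, as all 59 reads on the annotated introns came from that exon. Capitals mark a match to the TCF/LEF motif.
Slc1a2 promoter: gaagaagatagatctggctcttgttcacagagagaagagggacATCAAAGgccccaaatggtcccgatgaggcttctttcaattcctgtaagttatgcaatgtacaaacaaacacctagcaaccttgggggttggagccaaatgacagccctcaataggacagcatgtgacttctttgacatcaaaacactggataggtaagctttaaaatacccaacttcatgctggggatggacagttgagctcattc

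Searched on both strands in windows from 250 bases before to 50 bases after a start, the motif CTTTGAT (reverse complement ATCAAAG) occurred in 1 of the 6 promoters that the RefSeq table gives for Lgr4, Axin2, Rnf43, Glul and Slc1a2, and in 3.73% of all 32851 promoters. Its first base in the Slc1a2 window is at -207. The TEAD motif GGAATG (reverse complement CATTCC), TEAD factors being the DNA-binding partners of YAP, occurred in 2 of the 6, those of Slc1a2 and Lgr4, and in 14.7% of all. The 2 motifs do not overlap each other, and a match is a description of the letters only. Lgr5, Notum, Znrf3, Tbx3 and Rhbg were not matched in the table.

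Upstream of the 10 genes, the Wnt ligands and R-spondins divided. Of 5 other ligand and release genes tested, Wnt2 and Rspo3 fell in YAP and Wnt5b rose. Wnt2, a ligand made by liver endothelial cells, had 5.36, 5.39 and 4.05 CPM in WT and 2.09, 2.67 and 1.34 CPM in YAP (log2 fold change -1.27, SE 0.31, edgeR adjusted p = 0.0227). Rspo3, the R-spondin of the central vein, had 4.88, 5.24 and 4.46 CPM in WT and 1.72, 2.67 and 2.68 CPM in YAP (-1.04, SE 0.28, edgeR adjusted p = 0.0317). Wnt9b, another ligand of central vein endothelium, had at most 0.270 CPM in any library and was not tested. In YAP_Lsd1ko against YAP, Wnt2 and Rspo3 differed by 0.60 (edgeR adjusted p = 0.337) and 0.57 (edgeR adjusted p = 0.309), and 0 of the 5 passed.

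Among 7 tested markers of central vein endothelium, a list that shares Wnt2 and Rspo3 with the ligands, 4 fell in YAP and 0 rose, with a median of -0.82. The others that fell were the cadherin gene Cdh13 (-1.55, SE 0.22, edgeR adjusted p = 0.00288) and Vwf, the von Willebrand factor gene (-0.82, SE 0.22, edgeR adjusted p = 0.0317). Cdh13 rose from YAP to YAP_Lsd1ko (1.27, SE 0.22, edgeR adjusted p = 0.0255; 1.29 and 0.0490 without the library labelled YAP_Lsd1ko replicate 2). Its WT libraries held 7.31, 5.24 and 7.56 CPM, its YAP libraries 2.09, 2.56 and 2.19 CPM, and its YAP_Lsd1ko libraries 5.57, 5.29 and 5.71 CPM. The summed level of 9 such markers was 70.2 to 91.2 CPM in WT, 52.9 to 67.6 CPM in YAP and 63.2 to 65.5 CPM in YAP_Lsd1ko. Sinusoidal endothelial markers had a median of 0.03, with 2 of 10 risen (Lyve1 and Cdh5) and 0 fallen. The part of these cells in the levels of the 10 genes was not tested.

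Few genes of the shared machinery of the pathway passed between YAP and WT. Of 6 other Wnt receptors 0 passed (smallest edgeR adjusted p = 0.353), as did 0 of 13 genes of signal transduction and the destruction complex (smallest adjusted p = 0.250), the latter lying between -0.19 and 0.29. Ctnnb1, which encodes β-catenin, differed by -0.19 (SE 0.12, edgeR adjusted p = 0.277). Of 10 nuclear factors, the co-repressor gene Tle1 fell (-0.59, SE 0.16, edgeR adjusted p = 0.0338). Of 4 other antagonists and feedback genes, Nkd1, a feedback inhibitor, fell (-1.31, SE 0.32, edgeR adjusted p = 0.0239) and the receptor gene Tnfrsf19 rose (2.17, SE 0.28, edgeR adjusted p = 0.00168). Tnfrsf19 was also higher in YAP_Lsd1ko than in WT (1.54, SE 0.28, edgeR adjusted p = 0.0284), also without the library labelled YAP_Lsd1ko replicate 2 (1.33, adjusted p = 0.0262).

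Of 21 other genes of pericentral hepatocytes tested, 11 fell in YAP, 0 rose and 10 did not pass, with a median of -2.54. They include Cyp2e1, which oxidises ethanol and many drugs (-4.40, SE 0.72, edgeR adjusted p = 0.00516), Gulo, which completes the synthesis of vitamin C (-3.45, SE 0.31, adjusted p = 3.81e-04), and Oat, ornithine aminotransferase (-4.72, SE 0.61, adjusted p = 0.00210). Periportal genes, from the opposite end of the lobule, had a median of -0.82, with 7 of 17 fallen and 0 risen. Of 10 general hepatocyte markers 1 fell, Ttr, with a median of -0.58 for the list. In YAP_Lsd1ko against YAP, 3 of the 21 pericentral genes rose (Cyp2e1, Gulo and Rgn) with a median of 1.62, and 2 of 17 periportal genes rose with a median of 0.96. Without the library labelled YAP_Lsd1ko replicate 2, 2 of the pericentral genes (Gulo and Rgn) and 1 of the periportal genes rose, with medians of 1.30 and 0.59. No test compared these lists with each other.

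Other genes that handle glutamate, glutamine and ammonium passed in part. Of 14 tested, 3 fell in YAP: Oat, Glud1 (glutamate dehydrogenase, -0.79, SE 0.18, edgeR adjusted p = 0.0183) and Got1 (an aspartate aminotransferase, -1.97, SE 0.28, adjusted p = 0.00276). In YAP_Lsd1ko against YAP 0 of the 14 passed, with a smallest adjusted p of 0.124.

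**Figure D5:**
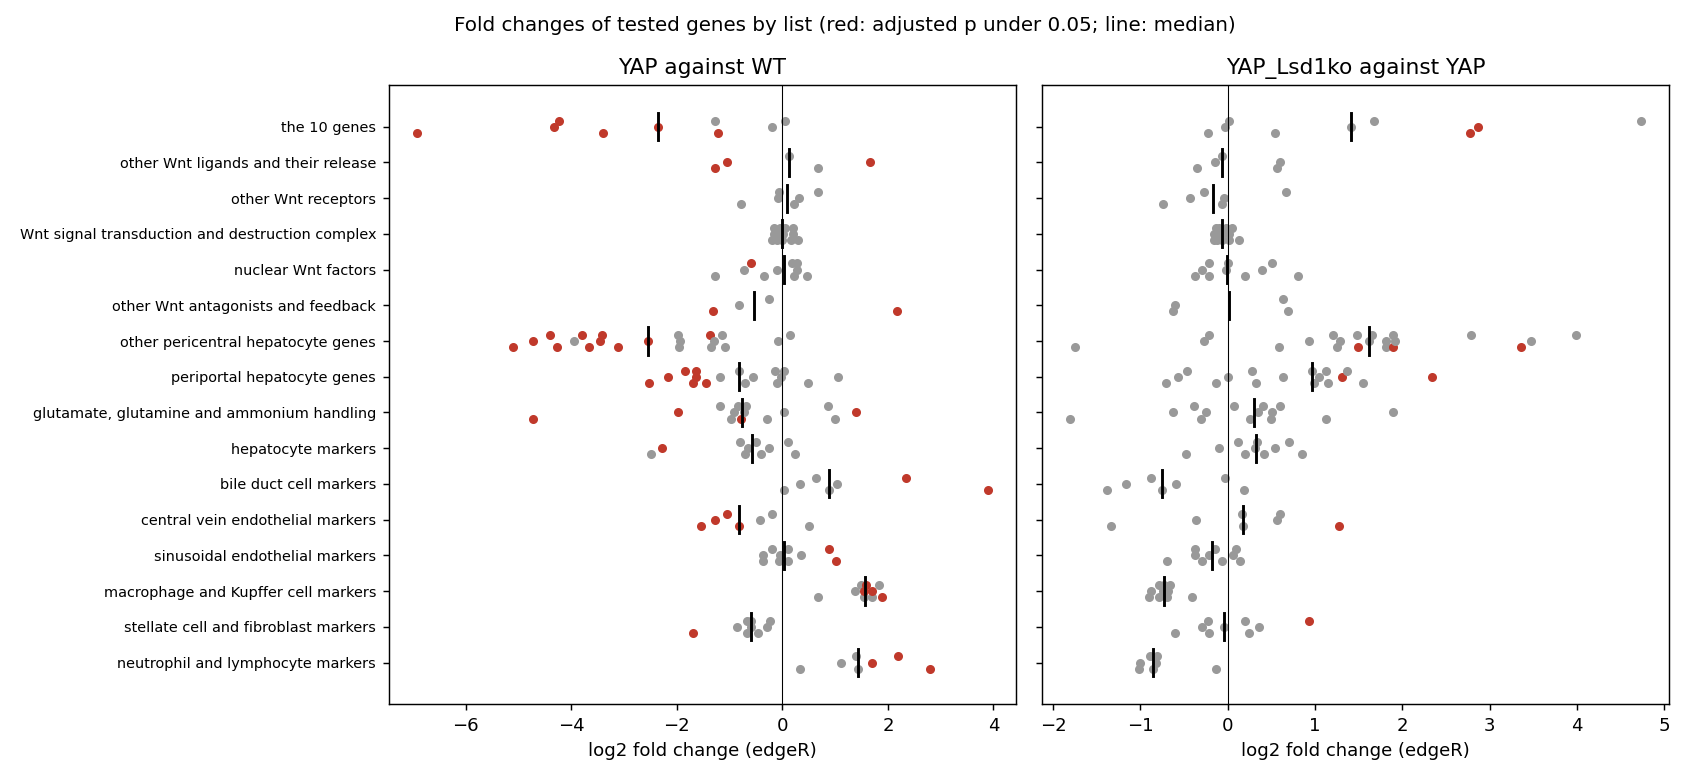
Log2 fold changes (horizontal axis, edgeR) of the tested genes of each list, 1 point a gene, in YAP against WT (left) and YAP_Lsd1ko against YAP (right), red where the adjusted p was under 0.05, with a vertical line at each list's median; the row of the 10 genes holds the 9 tested, without Rhbg. In YAP against WT the medians of the 10 genes (-2.35) and of other pericentral genes (-2.54) lie lowest, and those of transduction genes (-0.01) and other receptors (0.08) lie near 0.

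Markers of other cells moved between the same groups. In YAP against WT, 4 of 10 macrophage and Kupffer cell markers rose with a median of 1.56, 2 of 7 bile duct markers rose (Spp1 and Pkhd1) with a median of 0.88, and 3 of 7 neutrophil and lymphocyte markers rose with a median of 1.43. Of 9 stellate cell and fibroblast markers, Reln fell, with a median of -0.60 for the list. Every measured marker of these lists had reads in at least 1 library. Their part in the falls of the 10 genes was not tested.

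The genes whose profile over the 9 libraries was most like that of 4 of the genes were found by the root mean square difference of mean-centred log2 CPM. The log2 CPM had a prior count of 2, which shrinks the differences of genes with few reads, such as Lgr5, Axin2 and Tbx3. For Lgr5 they were Lama3 (0.19), Slc43a1 (0.23), Gulo (0.23), Gabbr2 (0.34) and B4galnt3 (0.34), beside a median of 1.47 over all genes tested. For Glul they were Akr1c6 (0.29), Sult1b1 (0.36), Gpcpd1 (0.40), Ang (0.41) and Gm16157 (0.43), beside 1.52. Tbx3 was nearest to Hgfac (0.31), Fads2 (0.31), Agmat (0.31), Msmo1 (0.32) and Zfand4 (0.32), beside 0.95, and Axin2 to Rab30 (0.29), 1700123O20Rik (0.30), Loxl1 (0.34), P3h3 (0.35) and Gbp10 (0.36), beside 0.80. Gulo and Akr1c6 are themselves among the other pericentral genes. Lama3 went from 37.5 CPM in WT to 3.15 in YAP and 12.6 in YAP_Lsd1ko, and Akr1c6 from 2766 to 319 and 1002 CPM. That these group means follow the course of Lgr5 and Glul is given by how the genes were picked.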

How the data were processed

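Stranded total RNA libraries of mouse liver were made after depletion of ribosomal RNA, per the labels' protocols. Tools named in the submitters' processing notes are STAR, featureCounts, edgeR, bcl2fastq and FastQC, with the build mm10; their versions and the annotation are not given in the sources used here. All deposited values are raw counts of uniquely mapped and multi-mapped reads at each splice junction, 1 table per library, beside the longest overhang in bases (38 at most).

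Junctions marked as annotated were matched to GENCODE M21 introns (GRCm38), and 150261 belonged to exactly 1 gene; 1702 belonging to several genes were left out, except for Rhbg. Unique reads were summed per gene (6516711 to 9267028 per library). A read crossing several junctions counts at each. edgeR 4.0.16 (R 4.3.3; limma 3.58.1) was fitted over all 9 libraries after filterByExpr and TMM, with robust quasi-likelihood dispersions and Benjamini-Hochberg adjustment over all genes tested, threshold 0.05. The SE is the log2 fold change divided by the square root of F. The script was tested on simulated data. DESeq2 1.42.0 and other scalings, filters, junction sets and left-out libraries were alternatives. Groups came from sample titles. Sequences came from GENCODE transcripts and RefSeq. Figures were made with matplotlib 3.10.9 (Python 3.11.15).

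The 10 genes and 15 gene lists were chosen with earlier results of these data known. Named genes are the 10, Kdm1a, Yap1, list genes that passed or had the 3 smallest p-values of a list, and the 5 genes most like Lgr5, Axin2, Tbx3 or Glul. Ctnnb1 and Wnt9b were named after their values were seen. A result for 1 gene of the lists is not reported here.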

Additional observations from a re-analysis of the deposited data

How the results depend on the processing

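In YAP against WT the falls of Lgr5, Lgr4, Notum, Tbx3, Glul, Slc1a2 and Rhbg kept their direction in every alternative in which they were tested, and lost their call in 1, the one that left out every replicate 3. There 0 genes passed in any comparison with edgeR, although 1476, 499 and 481 genes had an unadjusted p under 0.05 in YAP against WT, YAP_Lsd1ko against YAP and YAP_Lsd1ko against WT; 2 libraries a group were left. With libraries left out, the genes of the 10 that fell in YAP numbered 0 to 7, with Rhbg on its own junction. Over all genes 0 to 1421 fell there.

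The next counts are over junctions of 1 gene unless stated. With libraries left out, 0 to 5 of the 10 genes rose in YAP_Lsd1ko against YAP instead of 2. All genes that rose numbered 0 to 653 there and 191 of 10897 in the main fit. Of the 10, 5 rose with DESeq2 (531 of all 10897), 0 with only the 6 libraries compared (93 of 10706) and 1, Lgr5, with the replicate block (37 of 10897). In YAP_Lsd1ko against WT, 0 to 4 of the 10 fell with libraries left out instead of 0. All genes that fell numbered 0 to 228 there and 101 in the main fit. Of the 10, 4 fell with DESeq2 (289 of all 10897), 1 with only the 6 libraries compared (34 of 10472) and 1 with shared junctions counted (105 of 11249). The cause was not tested. With the replicate block, Notum in YAP_Lsd1ko against YAP had an adjusted p of 0.0689 (log2 fold change 2.88) and Rhbg of 0.0534 (2.99). Same-numbered libraries, as deviations from their group means, correlated at 0.34, 0.30 and 0.07 between WT and YAP. Between WT and YAP_Lsd1ko the values were -0.65, -0.66 and 0.19, and between YAP and YAP_Lsd1ko -0.22, -0.28 and 0.17. Deviations in a group sum to 0, so these values cannot tell whether the number marks anything shared, which the labels do not state. Not every library correlated best with the one of its own number. The block changed no other call among the 10 genes.

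Counts over all genes moved more. In YAP against WT, main counts of 811 risen and 1090 fallen became 1932 and 613 with library size alone, which shifts the median of all genes by 0.31 and the share of calls that are higher from 42.7% to 75.9%. They became 462 and 608 with the best-read junction, 403 and 624 with the block, 1264 risen with only 6 libraries, and 0 to 1330 risen and 0 to 1421 fallen with libraries left out. In YAP_Lsd1ko against YAP, 191 risen and 40 fallen became 531 and 181 with DESeq2, 93 and 16 with 6 libraries, 37 and 9 with the block, and 0 to 653 and 0 to 191 with libraries left out; 113 rose with library size alone and 115 with the best-read junction. In YAP_Lsd1ko against WT, 122 risen and 101 fallen became 308 and 289 with DESeq2, 208 and 65 with library size alone, 49 and 34 with 6 libraries, 63 and 50 with the best-read junction, 53 and 36 with the block, and 0 to 386 and 0 to 228 with libraries left out. Library size alone shifts the medians of the latter 2 comparisons by -0.14 and 0.17 and the share of higher calls from 82.7% to 77.4% and from 54.7% to 76.2%.

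Signs changed only for differences that did not pass. In YAP against WT, Rnf43 became 0.09 with library size alone and ranged from -0.38 to 0.01 with libraries left out, and Znrf3 ranged from -0.14 to 0.31. In YAP_Lsd1ko against YAP, Axin2 became -0.12 with library size alone and ranged from -0.54 to 0.46 with libraries left out, Rnf43 became 0.01 with multi-mapped reads counted and ranged from -0.25 to 0.08, and Znrf3 ranged from -0.45 to 0.04. In YAP_Lsd1ko against WT, Znrf3 ranged from -0.40 to 0.07. Among the genes without shared introns, depth limits Lgr5, Axin2, Tbx3 and Znrf3 most, with 155, 99, 139 and 218 reads in all. Rhbg had 94 reads on its own junction and 1347 on shared ones.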
